A study of Mus musculus with 15 samples.

Results

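The NRF2 pathway genes described here are the transcription factor gene *Nfe2l2* (NRF2), its repressor gene *Keap1*, and 8 genes widely used as readouts of NRF2 activity: *Srxn1*, *Hmox1*, *Nqo1*, *Gclm*, *Gclc*, *Txnrd1*, *Gsr* and *Abcc1*. These 10 genes were taken by symbol, not by a threshold on their values, and each was quantified as the sum of the reads on its transcripts. They are 10 of 55266 genes, and all 10 passed the filter on low counts, applied over the 5 groups, that left 10603 genes for testing. In resting cells KEAP1 binds NRF2 in the cytoplasm and presents it for ubiquitination and degradation. Oxidants and electrophiles modify KEAP1, NRF2 then accumulates in the nucleus, pairs with a small MAF protein and binds antioxidant response elements, or AREs, near genes for glutathione and thioredoxin metabolism, quinone and heme breakdown and export of conjugates. In fibroblasts growth factor stimulation is also accompanied by a burst of reactive oxygen species, and NRF2 is itself controlled at the level of its mRNA and its translation.

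The cells were NIH3T3, a long-used mouse fibroblast line of embryonic origin, carrying a doxycycline-inducible transgene for either histone H2A fused to mCherry, the control, or histone H2A fused to TerminaTOR, a genetically encoded inhibitor meant to block mTORC1 in the nucleus. Control cells were starved without PDGF, given PDGF, a mitogen of fibroblasts, given PDGF with rapamycin, which inhibits mTORC1 throughout the cell, or given PDGF with cycloheximide, which blocks translation. H2A-TerminaTOR cells received PDGF with cycloheximide, so their only matched controls are the H2A-mCherry cells with cycloheximide and PDGF, and no group shows the nuclear inhibitor without cycloheximide. In that comparison the inhibitor and the cell line differ together and cannot be told apart. No group received rapamycin or cycloheximide without PDGF. Each of the 5 groups had 3 libraries. All groups share the starvation and a doxycycline-inducible transgene. The sources used here do not give the doses and times, when doxycycline was added, or whether each line is 1 clone. Nothing in the labels tells whether replicate libraries were grown as separate cultures, so p-values measure only how far these samples spread, part of which may be technical.

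Total counts ran from 3466202 to 6777780 per library. The share of counts on mitochondrial genes moved with the groups. It was 11.1 to 12.2% without PDGF, 8.69 to 9.3% with PDGF, 9.85 to 11.04% with rapamycin, 6.28 to 6.64% in the cycloheximide controls and 6.32 to 6.63% in the TerminaTOR libraries. All 12 fibroblast markers examined had reads. Their summed level ran from 4741 to 5133 counts per 1000000 reads (CPM) with rapamycin and from 7339 to 9160 in the other 4 groups, a sum carried mainly by *Col1a1* and *Col1a2*. The markers did not move together: of 10 tested with rapamycin against PDGF, 5 were lower, including *Col1a1* (log2 change -0.76) and *Col1a2* (-0.65), and 3 were higher, *Dcn* (2.66), *Pdgfra* (1.45) and *Lum* (1.34). Of the defining markers of other cell types, *Adgre1*, *Epcam*, *Krt18* and *Krt19* had no read in any library. Reads on bases shared by transcripts appear to be missing from these counts, so a marker without reads may still be expressed. The 7 macrophage markers, of which 6 had reads, summed to between 6.91 and 11.3 CPM without PDGF and to between 16.0 and 26.1 CPM in the other groups. Most of those reads, 853, were on *Cd14*, which rose with PDGF (1.05), while *Lyz2*, the other one tested, was not called with PDGF (0.28) and was lower with rapamycin than with PDGF alone (-2.04). *Csf1r*, *Aif1* and *Ptprc* had 17, 6 and 2 reads in all. The 5 epithelial markers, of which 2 had reads, stayed between 0.475 and 3.88 CPM, and the 4 endothelial ones, all with reads, between 0.654 and 4.74 CPM. The part of these differences, and of the mitochondrial share, in the results that follow was not tested. In bulk RNA, fewer cells of a type and less RNA per cell cannot be told apart.

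Levels are CPM on the TMM scale (trimmed mean of M-values), means are given ± SD over 3 libraries, and changes are log2 values ± SE from edgeR with Benjamini-Hochberg adjusted p over the 10603 genes, called at an adjusted p under 0.05. The counting appears to have kept only reads on bases that belong to a single transcript, so levels are compared between groups for each gene and not between genes.

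PDGF raised 5 of the 10 genes and lowered none in edgeR, and the counts were 5 and 0 at an unadjusted p under 0.05, with DESeq2 and with limma-voom. *Srxn1*, *Nfe2l2*, *Hmox1*, *Txnrd1* and *Gclc* rose 2.12-fold to 5.96-fold, and *Keap1*, *Nqo1*, *Gclm*, *Gsr* and *Abcc1* were not called. Over all genes tested, 37.0% were called, 20.1% higher and 16.9% lower. The median change of the 10 genes was 0.62 on the log2 scale, against -0.01 over all genes. The groups did not overlap for 6 of the 10, against 46.2% of all genes. Scaling by library size alone shifted the median of all genes to -0.26 and lowered the share of called genes that were higher from 54.3% to 30.7%. Under that scaling the same 5 genes were higher, and *Nqo1*, *Gclm* and *Gsr* were called lower.

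With rapamycin the calls among the 10 genes went in both directions, as they did over all genes. Compared with PDGF alone, *Abcc1*, *Nfe2l2*, *Srxn1* and *Hmox1* were higher with rapamycin, and *Keap1*, *Gsr* and *Gclc* were lower. *Nqo1*, *Gclm* and *Txnrd1* were not called. Over all genes 32.3% were called, 16.3% higher and 16.1% lower. The median change of the 10 genes was 0.06 against 0.02 over all genes, and the groups did not overlap for 8 of the 10 against 40.9% of all genes. With library-size scaling the median of all genes was -0.10, that of the 10 genes turned to -0.07, and the share of called genes that were higher fell from 50.3% to 35.7%. The calls among the 10 were then 3 higher and 4 lower, since *Hmox1* lost its call and *Nqo1* was called lower.

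Cycloheximide with PDGF, compared with PDGF alone, was marked by lower levels. *Nfe2l2*, *Keap1*, *Hmox1*, *Gclc*, *Txnrd1* and *Abcc1* were lower and only *Srxn1* of the 10 was called higher, while *Nqo1*, *Gclm* and *Gsr* were not called. Over all genes 40.6% were called, 21.0% higher and 19.6% lower. The median change of the 10 genes was -0.52 against 0.01 over all genes, and the groups did not overlap for 7 of them against 50.6% of all genes. Library-size scaling gave all genes a median of -0.13 and moved the share of calls that were higher from 51.8% to 39.0%. It left 8 of the 10 genes called lower and none higher, *Srxn1* being at 0.02 (adjusted p = 0.804). The PDGF, rapamycin and cycloheximide comparisons all use the same 3 PDGF libraries, so their values are given side by side and not as independent evidence of each other.

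In H2A-TerminaTOR cells 2 of the 10 genes differed from H2A-mCherry cells, both lines with cycloheximide and PDGF. *Srxn1* and *Nfe2l2* were lower and none was called higher in edgeR, DESeq2 or limma-voom. At an unadjusted p under 0.05 edgeR had 1 higher, *Keap1*, and 2 lower. Over all genes 4.92% were called, 2.35% higher and 2.57% lower. The median change of the 10 genes was -0.09 against 0.00 over all genes, and the groups did not overlap for 4 of them against 23.7% of all genes. With library-size scaling the same 2 genes were lower, and the share of called genes that were higher moved from 47.7% to 60.5%.

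**Figure D1:**
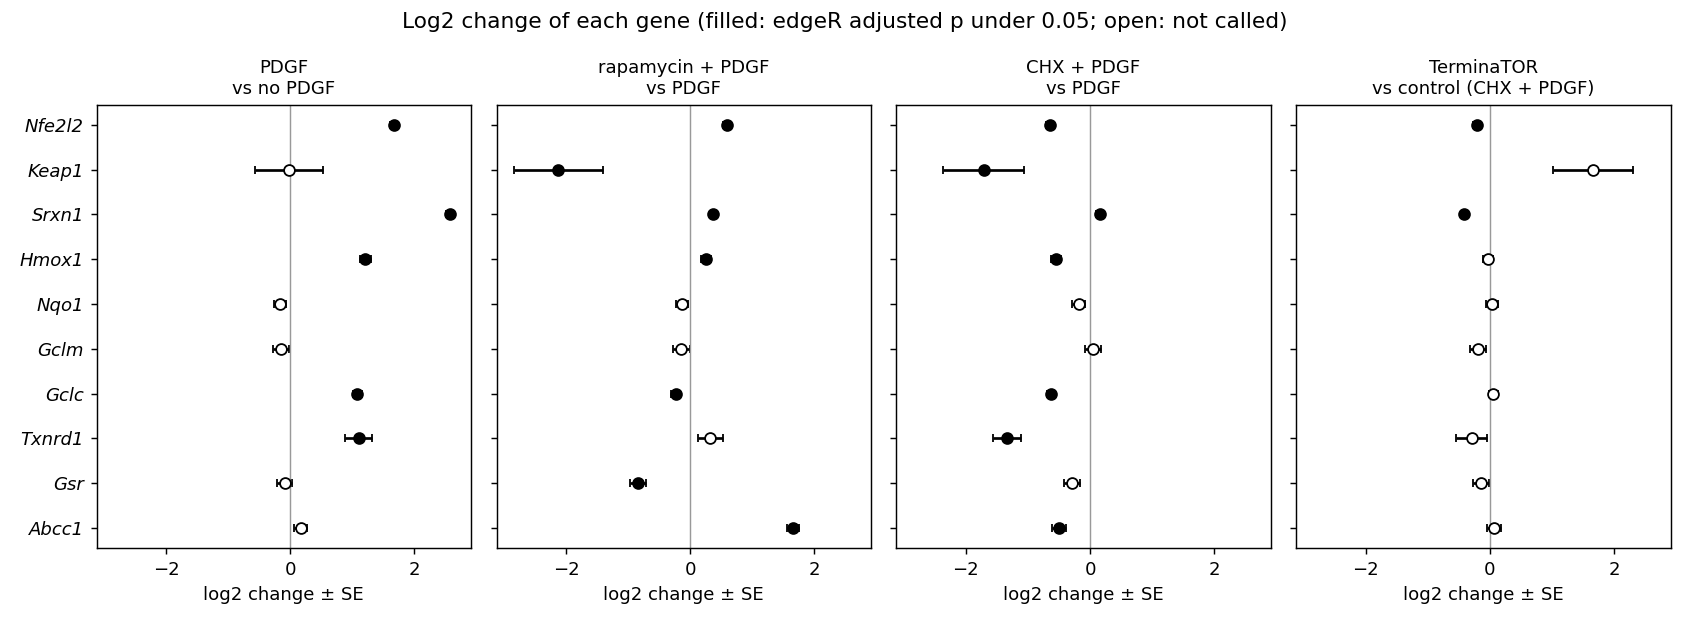
Log2 change ± SE of each of the 10 genes (x axis) in the 4 main comparisons, one panel each, from the edgeR fit of 15 libraries in 5 groups of 3. Filled points passed an adjusted p of 0.05: 5 rose with PDGF, 4 rose and 3 fell with rapamycin, 1 rose and 6 fell with cycloheximide, and 2 fell with TerminaTOR.

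*Nfe2l2* (ENSMUSG00000015839.6, GRCm38 chr2:75675513-75704641, minus strand) encodes NRF2, the activator of the pathway. It had 77600 reads over the 15 libraries. Its level was 488, 498.5 and 452.5 CPM without PDGF and 1433, 1605 and 1534 CPM with PDGF. With rapamycin and PDGF it reached 2123, 2392 and 2366 CPM, the highest of the 5 groups. With cycloheximide and PDGF the control libraries stood at 926, 1031 and 969 CPM and the TerminaTOR libraries at 823, 846.5 and 865 CPM. No 2 groups overlapped, in the rising order no PDGF, TerminaTOR with cycloheximide, control with cycloheximide, PDGF, and rapamycin with PDGF.

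*Nfe2l2* rose 3.18-fold with PDGF, by 1.67 ± 0.06 on the log2 scale (adjusted p = 3.45e-37). Rapamycin added a further rise over PDGF (0.59 ± 0.06, adjusted p = 3.61e-14). Cycloheximide lowered it from the PDGF level, with a log2 change of -0.65 ± 0.06 (adjusted p = 8.15e-16). It still stood above the no PDGF level there, by 1.02 (adjusted p = 2.29e-25). The TerminaTOR libraries were lower than their controls by a smaller amount, -0.21 ± 0.06 (adjusted p = 0.017). This last call depended on single libraries. It was lost without cycloheximide control replicate 2 (adjusted p = 0.14) or 3 (0.0651), without TerminaTOR replicate 1 (0.0923) or 2 (0.0741), and with no filter on low counts (0.112), at changes between -0.17 and -0.21.

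*Keap1* (ENSMUSG00000003308.15, GRCm38 chr9:21229730-21239361, minus strand) encodes the adaptor that marks NRF2 for degradation. It had only 138 counted reads in all, 130 of them on the coding transcript Keap1-202, which has 1036 bases of its own. The other coding transcripts, with 94, 29, 4 and 1 such bases, had 0 reads. The values below therefore describe mainly reads on bases particular to Keap1-202 and do not measure all *Keap1* mRNA. *Keap1* overlaps the antisense gene *Gm16754*, and without strand it is not known how reads in the overlap were counted. The 3 libraries of a group held 45 reads without PDGF, 34 with PDGF, 7 with rapamycin, 12 with cycloheximide and 40 in the TerminaTOR cells. Levels ran from 1.53 to 4.11 CPM without PDGF, from 1.45 to 4.96 with PDGF, from 0 to 1.39 with rapamycin, from 0.504 to 1.15 with cycloheximide and from 2.56 to 3.05 in the TerminaTOR libraries. The rapamycin and cycloheximide libraries were therefore the low ones, and neither overlapped the PDGF group.

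*Keap1* changed by -0.02 ± 0.54 with PDGF (adjusted p = 0.987). In the fit of all 5 groups it was lower with rapamycin (-2.12 ± 0.72, adjusted p = 0.0168) and with cycloheximide (-1.71 ± 0.65, adjusted p = 0.0291). With the compared groups alone *Keap1* failed the filter on low counts in both comparisons. It entered these tests only through its reads in the other groups. TerminaTOR gave 1.66 ± 0.65 relative to its control, which was not called (adjusted p = 0.145) although the groups did not overlap. With a library left out, the rapamycin change ran from -3.30, without rapamycin replicate 1, to -1.53, without PDGF replicate 1, and the cycloheximide change from -2.06 to -1.14. The rapamycin call was lost without PDGF replicate 1 (adjusted p = 0.17) or rapamycin replicate 2 (0.0925) or 3 (0.0658). The cycloheximide call was lost without PDGF replicate 1 (0.259) or cycloheximide replicate 1 (0.0653) or 2 (0.0909), with limma-voom (0.0843) and with no filter (0.0586).

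*Srxn1* (ENSMUSG00000032802.8, GRCm38 chr2:152105516-152111376, plus strand) encodes sulfiredoxin, which reduces over-oxidized peroxiredoxins, and had the widest change of the 10 genes under PDGF. All its 91405 reads fell on its protein-coding transcript. Libraries without PDGF stood at 266, 288 and 250 CPM and PDGF libraries at 1613, 1567 and 1608 CPM. With rapamycin the values were 1900, 2197 and 2116 CPM. The cycloheximide control libraries stood at 1785, 1785 and 1771 CPM and the TerminaTOR libraries at 1342, 1348 and 1324 CPM. The 5 groups did not overlap. The order from low to high was no PDGF, TerminaTOR with cycloheximide, PDGF, control with cycloheximide, and rapamycin with PDGF.

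*Srxn1* rose 5.96-fold with PDGF (2.58 ± 0.06, adjusted p = 2.46e-48). With cycloheximide and PDGF together it stood 6.65-fold above the no PDGF level (2.73 ± 0.06, adjusted p = 3.89e-50). Rapamycin raised it 1.30-fold over PDGF (0.38 ± 0.06, adjusted p = 4.13e-08). In TerminaTOR cells it was lower than in their controls, with a log2 change of -0.41 ± 0.06 (adjusted p = 8.48e-08), at 1338 ± 12.2 against 1780 ± 7.98 CPM. That call held in all 14 alternatives tried, between -0.42 and -0.38. The small rise with cycloheximide over PDGF (0.16 ± 0.06, adjusted p = 0.0163) was lost without PDGF replicate 1 (0.0756) or 2 (0.115), without cycloheximide replicate 1 (0.0809) or 2 (0.0811), and with no filter (0.0797).

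**Figure D2:**
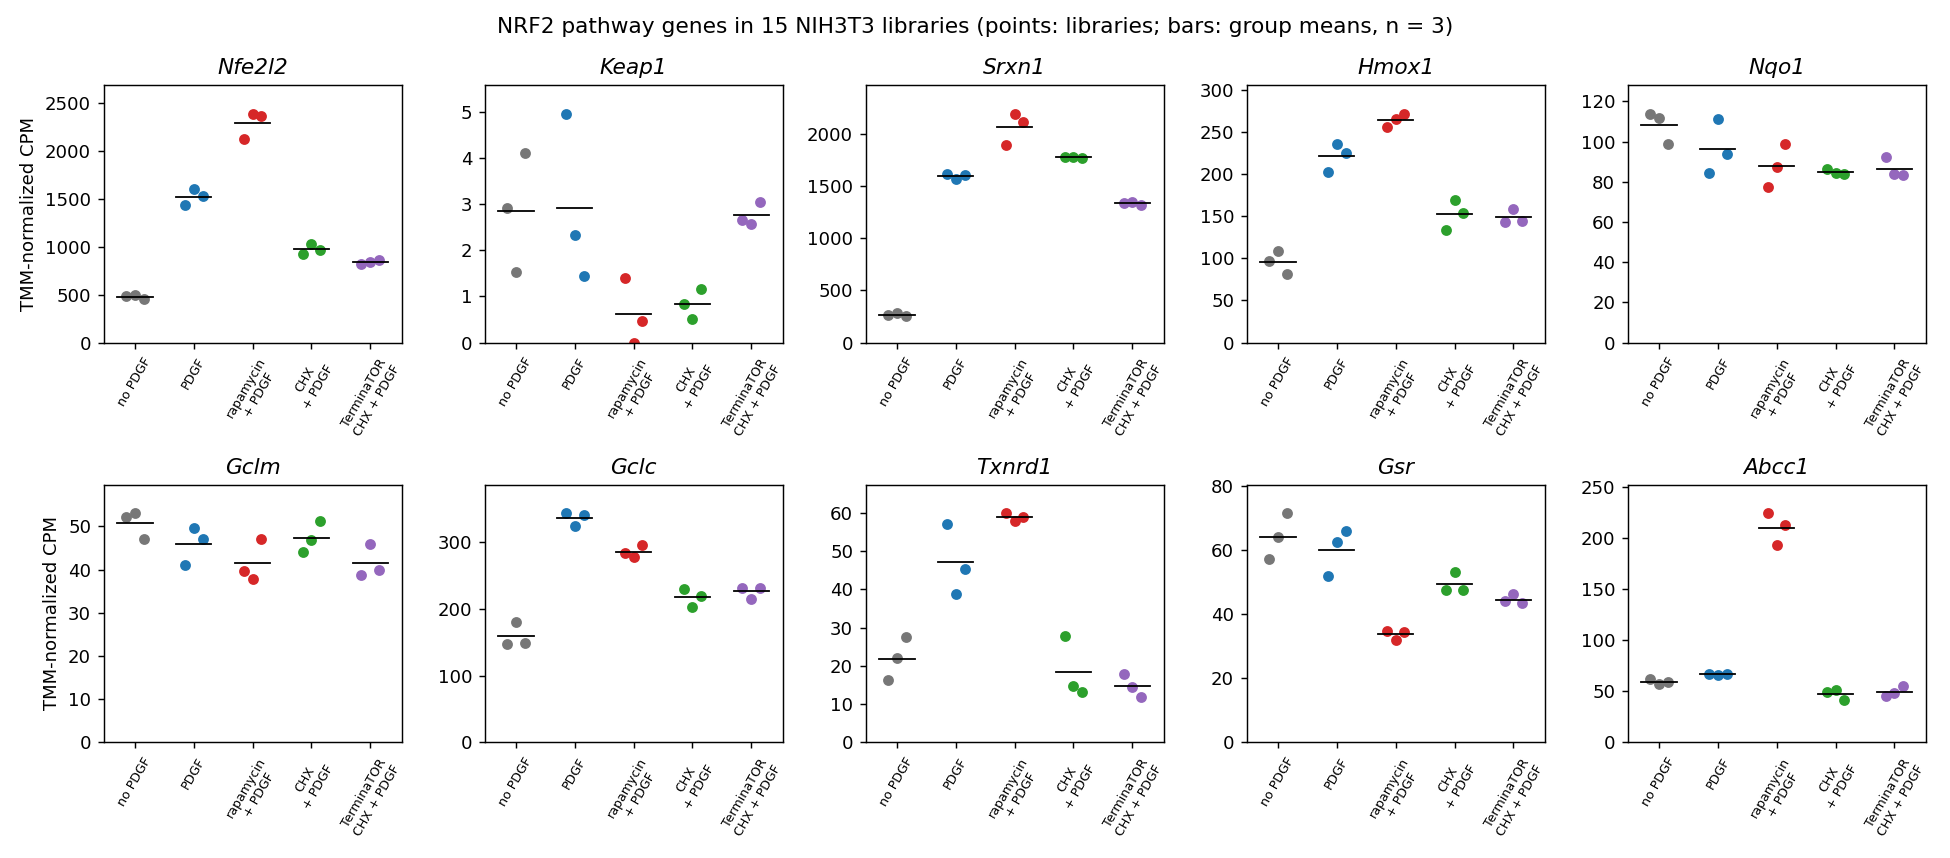
TMM-normalized CPM (y axis, from 0, a separate scale per gene) of the 10 genes in the 15 libraries of the 5 groups on the x axis, where CHX is cycloheximide. Points are libraries and bars are means of 3; *Srxn1* and *Nfe2l2* have 5 separate groups, *Abcc1* is high with rapamycin, and *Nqo1* and *Gclm* have groups that overlap their neighbours.

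Upstream sequence was available from RefSeq (GRCm38.p6) for 6 of the 10 genes, in 8 windows of 300 bases that run from 250 before an annotated start to 50 from it. *Hmox1*, *Gclc*, *Gsr* and *Abcc1* were not among them. The windows were searched on both strands for the ARE core, TGACNNNGC, and for the AP-1 site TGAGTCA, the letters bound by FOS and JUN proteins, which growth factors induce. The ARE core was in 12.4% of all 32851 windows and the AP-1 site in 5.20%. Counted by gene, 14% of 27025 genes had the ARE core in a window and 5.95% the AP-1 site. A full ARE often holds AP-1-like letters, so a position can match either pattern. The ARE core was found for *Nfe2l2*, *Srxn1*, *Gclm* and *Txnrd1*, and the AP-1 site for *Srxn1* alone, at 2 places. *Keap1* and *Nqo1* had neither in their window. The 250 bases before the start are printed for the 2 genes with the widest rise under PDGF and for *Gclm*, which holds an ARE core and was not called, each on the strand of its gene and with matches in capitals.
Nfe2l2: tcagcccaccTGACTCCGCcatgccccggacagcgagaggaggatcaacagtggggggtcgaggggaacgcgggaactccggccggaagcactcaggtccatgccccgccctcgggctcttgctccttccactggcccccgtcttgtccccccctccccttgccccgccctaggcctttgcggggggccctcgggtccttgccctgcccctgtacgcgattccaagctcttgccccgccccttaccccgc
Srxn1: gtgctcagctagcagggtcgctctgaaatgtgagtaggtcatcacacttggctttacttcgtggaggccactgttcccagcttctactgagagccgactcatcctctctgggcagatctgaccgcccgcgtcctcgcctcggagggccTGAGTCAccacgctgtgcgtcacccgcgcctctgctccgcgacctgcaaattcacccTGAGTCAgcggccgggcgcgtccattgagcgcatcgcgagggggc
Gclm: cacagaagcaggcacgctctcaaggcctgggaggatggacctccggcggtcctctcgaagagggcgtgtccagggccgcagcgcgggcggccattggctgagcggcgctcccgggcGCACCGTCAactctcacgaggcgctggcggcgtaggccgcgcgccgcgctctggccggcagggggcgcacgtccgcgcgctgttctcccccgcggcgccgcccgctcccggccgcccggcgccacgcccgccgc
The stretches are chr2:75704664-75704913 on the minus strand for *Nfe2l2*, chr2:152105274-152105523 on the plus strand for *Srxn1* and chr3:122245307-122245556 on the plus strand for *Gclm*. In *Nfe2l2* the capitals are the ARE core, from -240 to -232 relative to the start. In *Srxn1* they are 2 AP-1 sites, from -102 to -96 and from -45 to -39. Its match to TGACNNNGC lies past the start, on the opposite strand, outside the printed stretch. The AP-1 site from -45 to -39 is followed by gc, so it differs from that pattern only by a G for the C. An ARE core written with that G was not searched for. In *Gclm* the capitals are the ARE core on the opposite strand, from -134 to -126. A match describes these letters only, and nothing in these data shows a factor bound there.

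*Hmox1* (ENSMUSG00000005413.8, GRCm38 chr8:75093621-75100589, plus strand) encodes heme oxygenase 1, which breaks heme down to biliverdin, iron and carbon monoxide. Its levels were 97.4, 109 and 81.7 CPM without PDGF, 203, 236 and 225 CPM with PDGF, and 256, 266 and 272 CPM with rapamycin. With cycloheximide the controls stood at 134, 170 and 153.5 CPM and the TerminaTOR libraries at 144, 159 and 145 CPM. The last 2 groups overlapped, and the other groups were separate from their neighbours. PDGF raised *Hmox1* 2.31-fold (1.21 ± 0.09, adjusted p = 1.76e-19). Cycloheximide lowered it from the PDGF level by a log2 change of -0.54 ± 0.08 (adjusted p = 1.29e-07), and it remained above the no PDGF level by 0.67 (adjusted p = 1.21e-09).

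The rise of *Hmox1* with rapamycin was small (0.26 ± 0.08, adjusted p = 0.0102). It was lost without PDGF replicate 1 (0.114) or rapamycin replicate 3 (0.0598), with no filter (0.118) and with library-size scaling (0.217). TerminaTOR gave -0.03 (adjusted p = 0.919).

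*Nqo1* (ENSMUSG00000003849.8, GRCm38 chr8:107388225-107403206, minus strand) encodes the quinone reductase most often used as an NRF2 readout. It showed no called change in the 4 main comparisons. Libraries without PDGF stood at 114, 112 and 98.6 CPM and PDGF libraries at 84.3, 111 and 93.8 CPM. Rapamycin libraries stood at 77.4, 87.4 and 98.8 CPM, and the cycloheximide controls at 86.5, 84.5 and 83.7 CPM. TerminaTOR libraries were at 92.1, 83.7 and 83.3 CPM. Neighbouring groups overlapped throughout, with the no PDGF group at the top. The PDGF change was -0.16 ± 0.10 (adjusted p = 0.198), the cycloheximide change -0.18 (adjusted p = 0.139) and the rapamycin change -0.13 (adjusted p = 0.352). All 3 were called lower with library-size scaling (-0.41, -0.32 and -0.26), and the cycloheximide change also without PDGF replicate 1 (-0.29, adjusted p = 0.0296). TerminaTOR gave 0.03 (adjusted p = 0.929).

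Glutathione synthesis starts with the ligase made of a catalytic and a modifier subunit, encoded by *Gclc* and *Gclm*. *Gclc* (ENSMUSG00000032350.9, GRCm38 chr9:77754535-77794485, plus strand) stood at 147, 180 and 150 CPM without PDGF and at 343, 324 and 341 CPM with PDGF, its highest group. Rapamycin libraries stood at 283.5, 278 and 296 CPM. The cycloheximide controls stood at 229, 203.5 and 220 CPM and the TerminaTOR libraries at 232, 215 and 232 CPM, and these 2 groups overlapped. *Gclc* rose 2.12-fold with PDGF (1.08 ± 0.07, adjusted p = 2.13e-21). It was lower with rapamycin (-0.23 ± 0.07, adjusted p = 0.00763) and with cycloheximide (-0.63 ± 0.07, adjusted p = 1.6e-11), and TerminaTOR gave 0.06 (adjusted p = 0.785).

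*Gclm* (ENSMUSG00000028124.15, GRCm38 chr3:122245557-122270732, plus strand) was not called in any of the 4 main comparisons. It overlaps *Gm17494* on the opposite strand and the pseudogene *Gm6061*, and 99.2% of its 3092 reads were on Gclm-201. Group means ran from 41.5 ± 4.89 CPM with rapamycin to 50.8 ± 3.18 CPM without PDGF, and each group overlapped the next. The PDGF change was -0.14 ± 0.13 (adjusted p = 0.411), which was called lower with library-size scaling (-0.39, adjusted p = 0.00847). The catalytic subunit gene thus passed the test with PDGF and the modifier subunit gene did not, and the difference between the 2 genes was not tested.

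The reductases that return thioredoxin and glutathione to their reduced forms are encoded by *Txnrd1* and *Gsr*. *Txnrd1* (ENSMUSG00000020250.10, GRCm38 chr10:82833951-82897712, plus strand) had 2051 reads and overlaps *Eid3*, *Gm38560* and *Gm47073*. It stood at 16.2, 22.0 and 27.5 CPM without PDGF, at 57.0, 38.8 and 45.4 CPM with PDGF, and at 59.9, 57.8 and 58.9 CPM with rapamycin. With cycloheximide it stood at 27.7, 14.6 and 13.1 CPM in the controls and at 17.8, 14.6 and 11.9 CPM in the TerminaTOR libraries, a range that overlapped the no PDGF group. *Txnrd1* rose 2.15-fold with PDGF (1.10 ± 0.21, adjusted p = 0.000176). With cycloheximide it was lower than with PDGF alone (-1.34 ± 0.22, adjusted p = 2.06e-05) and did not pass the test against no PDGF (-0.24, adjusted p = 0.424). The rapamycin change was 0.33 ± 0.20 and not called (adjusted p = 0.239), and its sign turned when the most-read transcript stood for the gene (-0.08). The TerminaTOR change was -0.29 and not called (adjusted p = 0.618), and it turned to 0.12 without cycloheximide control replicate 1.

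*Gsr* (ENSMUSG00000031584.16, GRCm38 chr8:33652523-33698163, plus strand) encodes glutathione reductase. Its values were 57.1, 63.9 and 71.4 CPM without PDGF, 51.8, 62.5 and 65.9 CPM with PDGF and 34.8, 32.0 and 34.4 CPM with rapamycin. The rapamycin libraries were the lowest of the 15. The cycloheximide controls stood at 47.6, 53.2 and 47.4 CPM and the TerminaTOR libraries at 44.0, 46.2 and 43.3 CPM, just below them with no overlap. PDGF gave -0.09 ± 0.12 (adjusted p = 0.596; -0.34 and called lower, adjusted p = 0.0154, with library-size scaling). Rapamycin lowered *Gsr* by a log2 change of -0.83 ± 0.13 (adjusted p = 2.11e-07). The cycloheximide change of -0.29 ± 0.12 lay at the threshold (adjusted p = 0.0502) and was called in 8 of 14 alternatives, including without PDGF replicate 1 (0.0118) or cycloheximide replicate 2 (0.0312). TerminaTOR gave -0.15 (adjusted p = 0.62).

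*Abcc1* (ENSMUSG00000023088.17, GRCm38 chr16:14361558-14475737, plus strand) encodes MRP1, a pump that exports glutathione conjugates. It had the widest rise of the 10 genes with rapamycin. Libraries without PDGF stood at 61.6, 57.2 and 58.9 CPM and PDGF libraries at 66.9, 65.7 and 67.1 CPM. Rapamycin libraries reached 224.5, 193 and 213 CPM, far above all others. The cycloheximide controls stood at 49.2, 51.2 and 41.1 CPM and overlapped the TerminaTOR libraries at 45.1, 48.8 and 54.9 CPM. *Abcc1* was 3.16-fold higher with rapamycin than with PDGF alone (1.66 ± 0.10, adjusted p = 9.39e-24). PDGF gave 0.17 ± 0.10 (adjusted p = 0.214), although those groups did not overlap. Cycloheximide gave -0.50 ± 0.11 (adjusted p = 8.53e-05) and TerminaTOR 0.06 (adjusted p = 0.842).

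Set against the no PDGF libraries, the groups with inhibitors showed which levels lay above the starved state. With rapamycin and PDGF, 6 of the 10 genes were higher and 3 lower, over a background of 53.3% of genes called, 27.8% higher and 25.5% lower, and the groups did not overlap for 9 against 56.3% of all genes. The higher ones were *Srxn1* (2.95), *Nfe2l2* (2.26), *Abcc1* (1.83), *Hmox1* (1.47), *Txnrd1* (1.43) and *Gclc* (0.85), as log2 changes, and the lower ones were *Keap1* (-2.14), *Gsr* (-0.92) and *Nqo1* (-0.30). With cycloheximide and PDGF, 4 were higher and 4 lower, over a background of 47.4% called, 24.6% higher and 22.8% lower, and the groups did not overlap for 8 against 54.0% of all genes. *Srxn1*, *Nfe2l2*, *Hmox1* and *Gclc* (0.46, adjusted p = 2.23e-07) were higher, and *Keap1* (-1.73), *Gsr* (-0.38), *Nqo1* (-0.35) and *Abcc1* (-0.33) were lower. These comparisons share the no PDGF libraries with the PDGF comparison. Each differs by PDGF and an inhibitor together, and without a group given the inhibitor alone their parts cannot be told apart. With library-size scaling the median of all genes was -0.36 and -0.40 and the share of called genes that were higher fell from 52.1% to 31.6% and from 51.9% to 26.8%, and the calls among the 10 became 6 higher and 4 lower with rapamycin and 3 higher and 6 lower with cycloheximide.

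The difference between the rapamycin effect and the TerminaTOR effect was tested as a contrast of the 2 changes, the first without and the second with cycloheximide. The second is also a difference between cell lines. Inhibitor, background treatment and cell line therefore differ together and cannot be told apart. The contrast was called for 6 of the 10 genes, over 24.0% of all genes. It was above 0 for *Abcc1* (1.60 ± 0.15, adjusted p = 1.77e-14), *Nfe2l2* (0.80 ± 0.08, adjusted p = 5.22e-13) and *Srxn1* (0.79 ± 0.08, adjusted p = 2.41e-13). *Srxn1* and *Nfe2l2* were higher with rapamycin and lower with TerminaTOR, each relative to its own control. It was below 0 for *Keap1* (-3.78 ± 0.97, adjusted p = 0.00175), *Gsr* (-0.69 ± 0.18, adjusted p = 0.0022) and *Gclc* (-0.29 ± 0.10, adjusted p = 0.0287). The *Keap1* contrast ran from -4.95, without rapamycin replicate 1, to -3.18, without PDGF replicate 1. The *Gclc* contrast was lost in 6 of the 12 fits that left out a library, namely PDGF replicate 1 (0.0634) or 3 (0.0636), rapamycin replicate 2 (0.0543), cycloheximide replicate 2 (0.108), or TerminaTOR replicate 1 (0.0877) or 3 (0.0635). *Hmox1* (0.29, adjusted p = 0.0678) was called without PDGF replicate 2 (0.0428) or cycloheximide replicate 1 (0.0164) and *Txnrd1* (0.62, adjusted p = 0.175) without cycloheximide replicate 3 (0.0339), but the *Txnrd1* contrast was 0.20 without cycloheximide replicate 1.

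Because the counting works on transcripts, the transcripts behind these sums were examined in a separate fit of 13116 transcripts. In that fit 27.2% of transcripts were called with rapamycin and 37.1% with cycloheximide. *Nfe2l2* reads lay mainly on the coding transcript Nfe2l2-201, which held 97.5% of them, and the rest on Nfe2l2-202, annotated as a processed transcript. The share of Nfe2l2-202 was 3.34 ± 0.584% with PDGF and 1.29 ± 0.251% with rapamycin, with no overlap. With rapamycin Nfe2l2-201 rose by 0.59 ± 0.06 (adjusted p = 3.38e-14) while Nfe2l2-202 changed by -0.85 ± 0.16 (adjusted p = 1.08e-05). The rise of the gene was thus that of its coding transcript.

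In *Abcc1* the transcripts annotated with a retained intron held 7.99 ± 3.05% of reads without PDGF, 12.9 ± 5.23% with PDGF and 10.9 ± 4.1% with rapamycin. With cycloheximide they held 1.53 ± 0.714% in the controls and 1.96 ± 1.12% in the TerminaTOR libraries, below every library of the other 3 groups. The coding transcript Abcc1-201 rose with rapamycin (1.68, adjusted p = 4.66e-25), as did the retained-intron transcript Abcc1-211 (1.79 ± 0.38, adjusted p = 0.000131). With cycloheximide Abcc1-201 changed by -0.27 ± 0.11 and was not called (adjusted p = 0.0527), while Abcc1-211 changed by -2.78 ± 0.56 (adjusted p = 5.1e-05). The lower sum of *Abcc1* with cycloheximide was therefore not called on its coding transcript in this fit. It was called in the fit where the most-read transcript, Abcc1-201, stood for the gene.

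In *Txnrd1* retained-intron transcripts held most counted reads, from 57.8 ± 6.24% in the cycloheximide controls to 71.0 ± 1.79% with PDGF. The main retained-intron transcript, Txnrd1-207, has 2366 bases of its own and the main coding one, Txnrd1-205, has 419. These are therefore shares of counted reads and not of RNA molecules. Both these transcripts moved the same way with PDGF and with cycloheximide. With rapamycin Txnrd1-207 changed by -0.11 and was not called (adjusted p = 0.799). The share of coding transcripts was 29 ± 1.79% with PDGF and 34.9 ± 2.13% with rapamycin. With PDGF the coding Txnrd1-205 rose by 1.15 ± 0.29 (adjusted p = 0.000775) and the retained-intron Txnrd1-207 by 1.19 (adjusted p = 0.000356). With cycloheximide they changed by -0.73 ± 0.28 (adjusted p = 0.0325) and -1.50 (adjusted p = 1.83e-05).

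**Figure D3:**
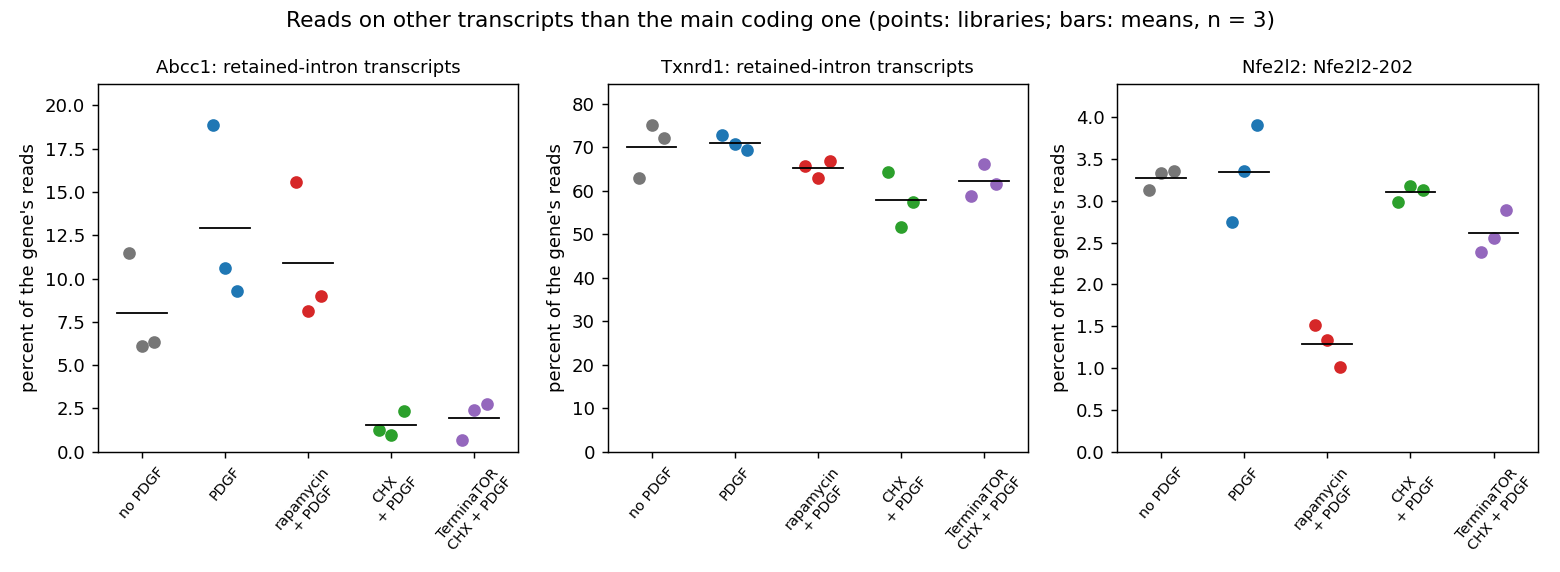
Percent of a gene's reads (y axis) on transcripts other than the main coding one, for *Abcc1*, *Txnrd1* and *Nfe2l2* in the 5 groups (x axis, CHX is cycloheximide). Points are libraries and bars are means of 3; the *Abcc1* share is 1.53% and 1.96% in the cycloheximide groups, and the *Nfe2l2* share is 1.29% with rapamycin.

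Other genes of the pathway were taken from 3 lists: 12 regulators and partners of NRF2, 30 further NRF2 targets, and 22 enzymes of glutathione, thioredoxin and superoxide metabolism outside those lists. Of these, 11, 19 and 16 genes could be tested, and the shares called over all genes are those given above for each comparison. The other members of the lists had too few counted reads, which with this counting need not mean low expression.

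With PDGF, 6 regulators were higher and 2 lower, with a median of 0.48. *Maff*, a small MAF partner of NRF2, rose 11.4-fold, from 0.755 ± 0.807 to 9.16 ± 1.94 CPM (adjusted p = 2.35e-11). *Sqstm1*, which encodes the p62 protein that captures KEAP1, rose 3.93-fold, and *Mafk*, another small MAF, rose 2.75-fold. Among the further targets 4 were higher and 3 lower, with a median of 0.09. *Slc7a11*, the cystine importer that supplies glutathione synthesis, rose 3.82-fold (adjusted p = 6.67e-24). *Ugdh*, which makes UDP-glucuronate (4.38-fold, adjusted p = 1.27e-14), and *Akr1b8*, an aldo-keto reductase (1.66-fold), also rose. The 3 lower ones were *Cat* (-0.61), *Pgd* (-0.56) and *Slc48a1* (-0.30), as log2 changes. Of the other redox enzymes 3 were higher and 1 lower, with a median of -0.11. *Chac1*, which degrades glutathione, rose 3.5-fold, and *Txn2*, mitochondrial thioredoxin, rose 2.88-fold. *Glrx*, glutaredoxin, rose from 0.268 ± 0.145 to 2.29 ± 1.36 CPM (adjusted p = 0.00047).

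With rapamycin, 2 regulators were higher and 1 lower, with a median of -0.07. *Maff* was 2.23-fold higher and *Nfe2l1*, a relative of NRF2, 2.15-fold higher, and *Gsk3b*, a kinase that marks NRF2 for degradation, changed by -0.34. Among the further targets 1 was higher and 5 lower, with a median of -0.27. *Slc7a11* was 1.78-fold higher (adjusted p = 3.3e-11), and *Blvra*, biliverdin reductase A (-0.92, groups overlapping), and *Cat*, catalase (-0.74), were lower. Of the other redox enzymes 3 were higher and 1 lower, with a median of 0.34. *Sod2*, the mitochondrial superoxide dismutase, rose from 27.6 ± 4.56 to 199 ± 15.6 CPM, 7.20-fold (adjusted p = 1.56e-31), and *Glrx* was 9.07-fold higher at 20.3 ± 5.70 CPM, while *Chac1* changed by -0.72.

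With cycloheximide, 5 regulators were higher and 3 lower (median 0.43), 5 further targets were higher and 6 lower (median -0.05), and 2 other redox enzymes were lower and 0 higher in edgeR (median -0.28; 3 and 2 at an unadjusted p under 0.05). *Maff* was 2.85-fold above its PDGF level and *Btrc*, a ubiquitin ligase subunit, 1.81-fold above it (adjusted p = 0.0488), while *Nfe2l1* changed by -1.54. *Slc7a11* changed by -2.52, from 197 ± 17.6 to 34.1 ± 7.98 CPM (adjusted p = 7.56e-28). *Fth1*, the ferritin heavy chain (-2.90), and *Prdx6*, a peroxiredoxin (-2.83), also fell, at low read numbers in these files. *Chac1* (-1.74) and *Txn2* (-1.31) fell as well.

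With TerminaTOR, 2 regulators (median -0.24) and 2 further targets (median 0.06) were lower in edgeR, none of either list was higher, and no other redox enzyme was called (median -0.01). At an unadjusted p under 0.05 the regulators had 0 higher and 4 lower, the further targets 3 and 2, and the other redox enzymes 2 and 2. *Sqstm1* changed by -0.59 (adjusted p = 0.0337) and *Mafg*, a small MAF partner, by -0.25, from 761.5 ± 40.8 to 640 ± 3.46 CPM (adjusted p = 0.00172). *Ugdh* changed by -0.63 (adjusted p = 0.00146) and *Ftl1*, the ferritin light chain, by -1.27 (adjusted p = 0.0384), from 7.48 ± 1.52 to 3.06 ± 1.44 CPM.

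**Figure D4:**
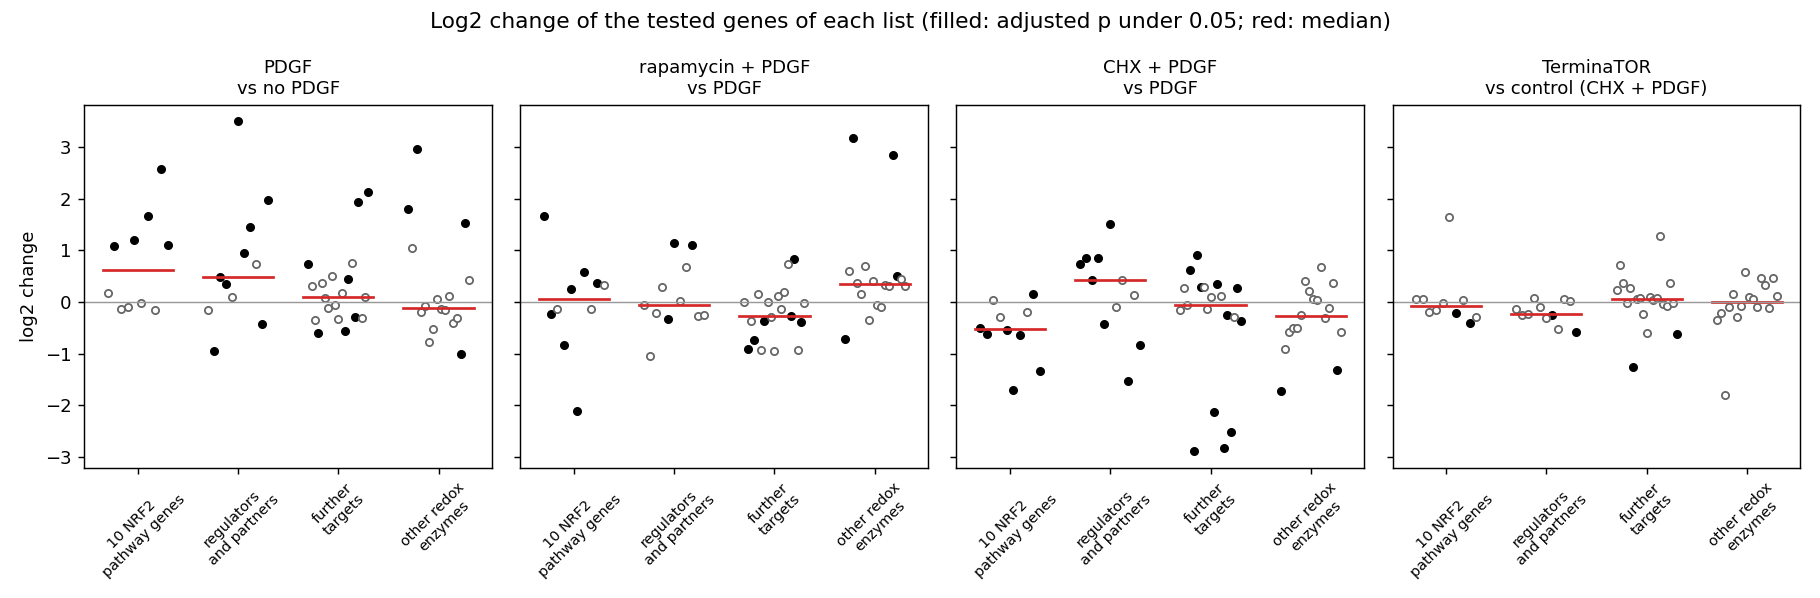
Log2 change (y axis) of every tested gene of the 10-gene group and of the 3 further lists (x axis), in the 4 main comparisons, one panel each; filled points passed an adjusted p of 0.05 and red bars are medians. The median of the 10 genes is 0.62 with PDGF and -0.52 with cycloheximide.

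The genes whose levels followed those of *Srxn1* most closely over the 15 libraries, by Pearson's r of log2(CPM + 0.5) among 7284 genes, were *Spry2* (0.996), *Ier3* (0.991), *Arid5a* (0.991), *Etf1* (0.989) and *Nfil3* (0.986). For *Keap1*, which had the largest absolute change with rapamycin and with cycloheximide, they were *E2f2* (0.895), *Elovl4* (0.849), *Kif23* (0.833), *Fam102b* (0.798) and *Mark1* (0.794). For 2 further genes, chosen after their values were seen, the closest were *Ywhag* (0.996), *Gdnf* (0.991) and *Hk2* (0.989) for *Nfe2l2*, and *Gbp2* (0.981), *Map3k20* (0.981) and *Fgf2* (0.979) for *Abcc1*. These values are descriptions, since the libraries fall into 5 treatment groups that all the genes share.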

How the data were processed

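Poly-A selected RNA from 15 NIH3T3 libraries, 3 in each of 5 groups, was sequenced. The deposited files list 142446 mouse transcripts with raw counts of reads as whole numbers. HISAT2 2.2.1, HTSeq 0.9.1 and R 4.1.0 are named in the submitters' processing notes, which also give the build hg38, a human assembly although the identifiers are of mouse transcripts, so the sources used here do not name the mouse build. Identifiers were matched to GENCODE M21 (GRCm38). Of them 141536 matched, and the 910 others, with 0.0309% of counts, were dropped before the sum per gene. Reads on bases shared by transcripts appear to be missing from such counts, so sums rest on transcript-specific bases and shifts between isoforms can change them. Strandedness is not stated.

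Tests used edgeR 4.0.16 in R 4.3.3 (quasi-likelihood F test, robust; TMM; filterByExpr, leaving 10603 genes), with all 15 libraries in a common fit without a replicate term and 10 residual degrees of freedom. TMM factors ran from 0.909 to 1.23. SEs were back-calculated as the size of the log2 change over the square root of F. The script was tested on simulated data. Replicates of a group differed by more than sampling noise. DESeq2 1.42.0 and limma 3.58.1 (voom), library-size scaling, no filter, the compared groups alone, a replicate block, the most-read transcript per gene and leaving out each library were the alternatives, and a fit on transcripts was added after seeing the data. From the lists, up to 3 called genes with the largest absolute change and a mean of at least 2 CPM were named per list and comparison. The further targets that were lower with PDGF were named as well. For the gene with the largest absolute change with PDGF, rapamycin or cycloheximide the 5 most alike genes were named. The 10 genes, the lists and the tests were chosen with earlier results of these data known.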

Additional observations from a re-analysis of the deposited data

How the results depend on the processing

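Of 748 alternative values of the 10 genes' changes, 698 kept their side of the threshold, 30 lost the call, 20 gained it and no called value changed sign. Of the 698, 675 also kept their sign and 23, called in neither fit, changed it, at values between -0.11 and 0.35. With library-size scaling 8 of the 10 genes were called with PDGF, against 5 in the fit reported. With TerminaTOR 1 of the 10 was called without a filter, against 2, and 1 to 2 when a library was left out. Over all genes the TerminaTOR comparison called 804 with the compared groups alone, against 522, and between 308 and 367 without a library. When a library was left out, the 10 genes gave 5 calls with PDGF each time, 5 to 7 with rapamycin, 5 to 7 with cycloheximide, 8 to 10 and 6 to 9 for rapamycin and cycloheximide against no PDGF, and 5 to 7 for the contrast. *Keap1* failed the filter with the compared groups alone for rapamycin and for cycloheximide, so those values were not run.

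For libraries with the same replicate number the correlations of their deviations from the group means ran from -0.001 to 0.078. Correlations between different numbers were not taken for comparison, so whether a number marks a shared batch was not tested. With a replicate block 5, 7, 8 and 2 of the 10 genes were called in the 4 main comparisons, 9 and 8 in those of rapamycin and cycloheximide against no PDGF, and 7 for the contrast. The calls gained were *Gsr* with cycloheximide (-0.28, adjusted p = 0.0488) and *Hmox1* in the contrast (0.29, adjusted p = 0.0398). The values of *Keap1* rest on 138 reads over all 15 libraries. What size of change this depth could show was not tested.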
